A study of Saccharomyces cerevisiae with 8 samples.

Results

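The genes described here encode subunits of the last part of the yeast respiratory chain and of the ATP synthase, together with factors that assemble the ATP synthase. They were taken by name: 9 genes of complex III, 7 genes of complex IV and 16 ATP synthase genes, 32 in all of 5816 genes tested. The ATP synthase names ATP10, ATP11 and ATP12 belong to assembly factors that are not part of the finished enzyme, so the group is called respiratory and ATP synthase genes below. Each of the 32 genes had 1 probe on the array, and all 32 were well above background on all 8 arrays, so 0 members were lost to the filter on dim probes.

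Messenger RNA was measured in diploid Saccharomyces cerevisiae BY4743, a laboratory strain of the S288C line that carries deletions of URA3, LEU2 and HIS3. Cultures of 120 ml in rich YPD medium were shaken at 130 rpm and 30 °C for 3 h, either without isopropanol (control, 4 arrays) or with isopropanol at 40 g/l (4 arrays). The sample descriptions write the dose as 40 mg/l, whereas the sources, the characteristics and the design text give 40 g/l, which is used here. Nothing in the labels ties an array to a culture, so p-values measure the spread between arrays, which may be technical, and a whole culture's signal cannot tell a change in every cell from a change in the share of cells with the transcript.

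Yeast makes its complex III (ubiquinol to cytochrome c) and complex IV (cytochrome c to oxygen) from nuclear genes and from a few genes on mitochondrial DNA, and the same holds for the ATP synthase, which uses the proton gradient that the chain builds. Many of the nuclear genes are known as targets of the Hap2/3/4/5 activator, whose regulatory subunit Hap4 is scarce on glucose and abundant in respiring cells. Which of the genes described here are targets was not tested. On glucose-rich medium such as YPD yeast ferments, and the genes of respiration are kept low by glucose repression.

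The probes for URA3, LEU2 and HIS3, deleted in this strain, were well above background on 0 of 8 arrays each. The 75th percentile of signal ran from 1312 to 1678 intensity units over the control arrays and from 1802 to 2449 over the isopropanol arrays, and levels below are log2 signal minus that percentile of the same array. The control group occupied slide 1 and the isopropanol group slide 2, and treatment and slide therefore cannot be told apart here. Control replicate 3 was scanned apart from the other control arrays, and the isopropanol arrays shared a scan without any control array. Against 5 spike-in probes the 75th percentile itself was higher by 1.16 (log2) on the isopropanol arrays, or by 0.75 without isopropanol replicate 1, whose spike-ins lay at -1.76 relative to the percentile while those of the 3 remaining isopropanol arrays lay at -0.24 to 0.00082. On the spike-in scale each change below is greater by 1.16, so that 30 of the 32 genes were called higher and 0 lower (77.8% and 0.327% of all genes). Without isopropanol replicate 1 all 32 were higher there (83.7% of all genes higher and 1.32% lower). Directions below are relative to the 75th percentile.

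The 32 genes moved little and in both directions. Of them 12 rose, 5 fell and 15 did not pass (limma, Benjamini-Hochberg adjusted p under 0.05 over all genes). Of all genes tested, 77.8% were called, 48.1% as higher and 29.7% as lower, against 53.1% of the 32. The shares called were 56.2% of members and 76.6% of all genes after median centring, and 62.5% and 73.7% after quantile normalization. With normexp they were close, at 43.8% and 42.2%. No member reached a 2-fold change (0 of 32, where 9.47% of all genes did), and 9 of 32 (28.1%) changed by 1.2-fold or more, against 59.0% of all genes. The median size of change was 0.16 (log2) over the members and 0.33 over all genes, while the median standard error was 0.05 for both. After quantile normalization those median sizes were 0.21 and 0.29, and with normexp 0.20 and 0.28. The shares at 1.2-fold or more were 43.8% of members and 53.6% of all genes after quantile normalization, and 40.6% and 52.1% with normexp. After median centring they were 21.9% and 57.8%. The members' changes ran from -0.36 to 0.68 on the reported scale, with an SD of 0.23 against 0.63 over all genes. Those SDs were 0.29 and 0.58 after quantile normalization, and 0.31 and 0.49 with normexp. On the reported scale 29 of 32 lay within the interquartile range of all genes, from -0.21 to 0.44. Exceptions were QCR2 above it, and QCR7 and COX6 below it. In all 19 of 32 lay below the median of all genes, where 50% of all genes lie by definition, but 14 did so after quantile normalization and 8 with normexp.

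**Figure D1:**
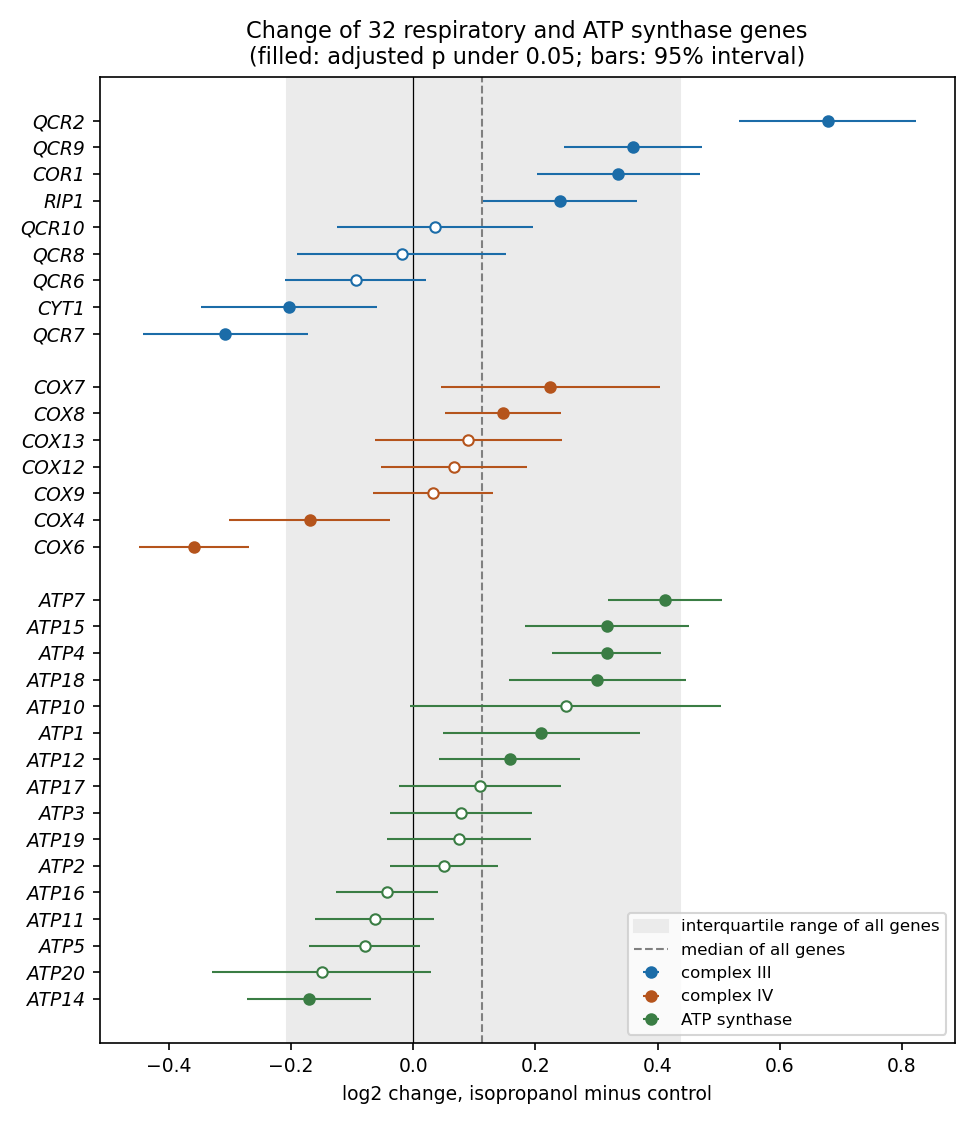
Log2 change of each of the 32 genes (isopropanol minus control, horizontal axis) with its 95% interval, by complex, filled where the adjusted p was under 0.05. The grey band is the interquartile range of all 5816 genes (-0.21 to 0.44) and the dashed line their median (0.11); QCR2 lies to the right of the band, and QCR7 and COX6 to its left.

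In complex III 4 of 9 genes rose and 2 fell (66.7% called, against 77.8% of all genes). The median log2 change was 0.04, against 0.11 over all genes. That median lay at -0.12 after median centring and at -0.03 without control replicate 2. Both core protein genes rose, one of the catalytic subunit genes rose and the other fell, and the 5 small subunit genes split into 1 higher, 1 lower and 3 that did not pass. QCR2 (YPR191W), for the second core protein, read -0.81, -0.71, -0.64 and -0.76 on control replicates 1 to 4 and -0.03, -0.19, -0.09 and 0.10 on the isopropanol arrays. Every isopropanol array lay above every control array, and the rise of 1.60-fold (log2 0.68, SE 0.06, adjusted p = 4.74e-06 in limma) was the largest among the 32 genes under the reported scaling. COR1 (YBL045C), for the first core protein, read 0.57, 0.51, 0.69 and 0.51 on the control arrays and 0.94, 0.82, 0.84 and 1.03 with isopropanol. These groups did not overlap either, and COR1 rose 1.26-fold (log2 0.34, SE 0.06, adjusted p = 0.000467 in limma).

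The catalytic subunit genes of complex III went apart. CYT1 (YOR065W), which encodes cytochrome c1, read -0.65, -0.74, -0.79 and -0.64 on the control arrays and -1.04, -0.79, -0.82 and -0.99 with isopropanol. The highest isopropanol array lay just under the lowest control array, and CYT1 fell 1.15-fold (log2 -0.20, SE 0.06, adjusted p = 0.0148 in limma). RIP1 (YEL024W), for the Rieske iron-sulfur protein that passes electrons to cytochrome c1, rose 1.18-fold (log2 0.24, adjusted p = 0.00279 in limma) without overlap of the groups, a call lost after median centring (0.08), quantile normalization (0.09) and normexp background correction (0.10).

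Among the small subunits of complex III, QCR9 (YGR183C) read -2.78, -2.97, -2.92 and -2.86 on the control arrays and -2.46, -2.51, -2.57 and -2.56 with isopropanol. It rose 1.28-fold (log2 0.36, SE 0.05, adjusted p = 8.52e-05 in limma), a call lost after quantile normalization (0.07) and turned to -0.04 with normexp, where it did not pass. QCR7 (YDR529C), a subunit of the matrix side, read 0.03, -0.01, -0.04 and 0.12 on the control arrays and -0.19, -0.23, -0.26 and -0.44 with isopropanol. Its groups did not overlap, and QCR7 fell 1.24-fold (log2 -0.31, SE 0.06, adjusted p = 0.000914 in limma). QCR8 (YJL166W), a subunit that binds near cytochrome b, had the smallest change of the complex, at -0.02 (95% interval -0.19 to 0.15). It read -0.16, -0.18, 0.09 and 0.14 on the control arrays and -0.05, 0.05, -0.09 and -0.10 with isopropanol, so the isopropanol arrays lay inside the control range. QCR6, for the acidic hinge protein, stood at -0.09 (-0.21 to 0.02) and QCR10 at 0.04 (-0.12 to 0.20), and neither passed. QCR6 passed as lower without isopropanol replicate 4 (-0.14, adjusted p = 0.00683 in limma) and after median centring (-0.25), and QCR10 passed as lower after quantile normalization (-0.44) and stood at -0.46 with normexp without passing.

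In complex IV 2 of 7 nuclear subunit genes rose and 2 fell (57.1% called, against 77.8% of all genes). The median of 0.07 turned to -0.09 after median centring, -0.04 after quantile normalization and -0.02 with normexp. Of these calls only that of COX6 stayed the same under every other scaling but the spike-ins and when each array was left out in turn. COX6 (YHR051W), for a subunit that faces the matrix, read 0.13, 0.07, 0.07 and 0.10 on the control arrays and -0.26, -0.27, -0.33 and -0.21 with isopropanol. Both groups were tight and lay well apart, and COX6 fell 1.28-fold (log2 -0.36, SE 0.04, adjusted p = 1.6e-05 in limma). It was the largest decrease among the 32 genes on the reported scale.

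COX4 (YGL187C), a zinc-binding matrix subunit, read -0.86, -0.70, -0.63 and -0.62 on the control arrays and -0.81, -0.93, -0.86 and -0.89 with isopropanol. Control replicate 1 lay among the isopropanol arrays. COX4 fell 1.12-fold (log2 -0.17, SE 0.06, adjusted p = 0.0226 in limma), a call lost without control replicate 3, control replicate 4 or isopropanol replicate 2 (adjusted p = 0.0658, 0.064 and 0.0589 in limma). COX7 (YMR256C), for a small membrane subunit, read -0.56, -0.22, -0.54 and -0.43 on the control arrays and -0.12, -0.13, -0.25 and -0.35 with isopropanol. Control replicate 2 lay within the isopropanol range. COX7 rose 1.17-fold (log2 0.22, SE 0.08, adjusted p = 0.0259 in limma), a call lost without control replicate 1 or 3 or isopropanol replicate 1 or 2 (adjusted p between 0.0653 and 0.0728 in limma) and after median centring (0.07) or quantile normalization (0.18).

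COX8 (YLR395C), another small membrane subunit, read -2.04, -1.94, -1.96 and -1.996 on the control arrays and -1.78, -1.82, -1.84 and -1.91 with isopropanol. It rose 1.11-fold (log2 0.15, SE 0.04, adjusted p = 0.009 in limma), but its change was -0.01 after median centring, -0.04 after quantile normalization and -0.02 with normexp, with no call. COX9 (YDL067C), a membrane subunit, changed least, at 0.03 (95% interval -0.07 to 0.13). Its readings were -0.03, -0.01, 0.01 and 0.09 on the control arrays and 0.07, 0.11, 0.01 and -0.01 with isopropanol, which overlap throughout. COX12, for a subunit that faces the intermembrane space, stood at 0.07 (-0.05 to 0.19) and COX13 at 0.09 (-0.06 to 0.24), and neither passed. COX12 lay below 0, without a call, after median centring (-0.09), after quantile normalization (-0.10) and with normexp (-0.08). COX13 passed as higher without isopropanol replicate 4 (0.15, adjusted p = 0.045 in limma) and with normexp (0.24), and COX9 passed as lower after median centring (-0.13).

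**Figure D2:**
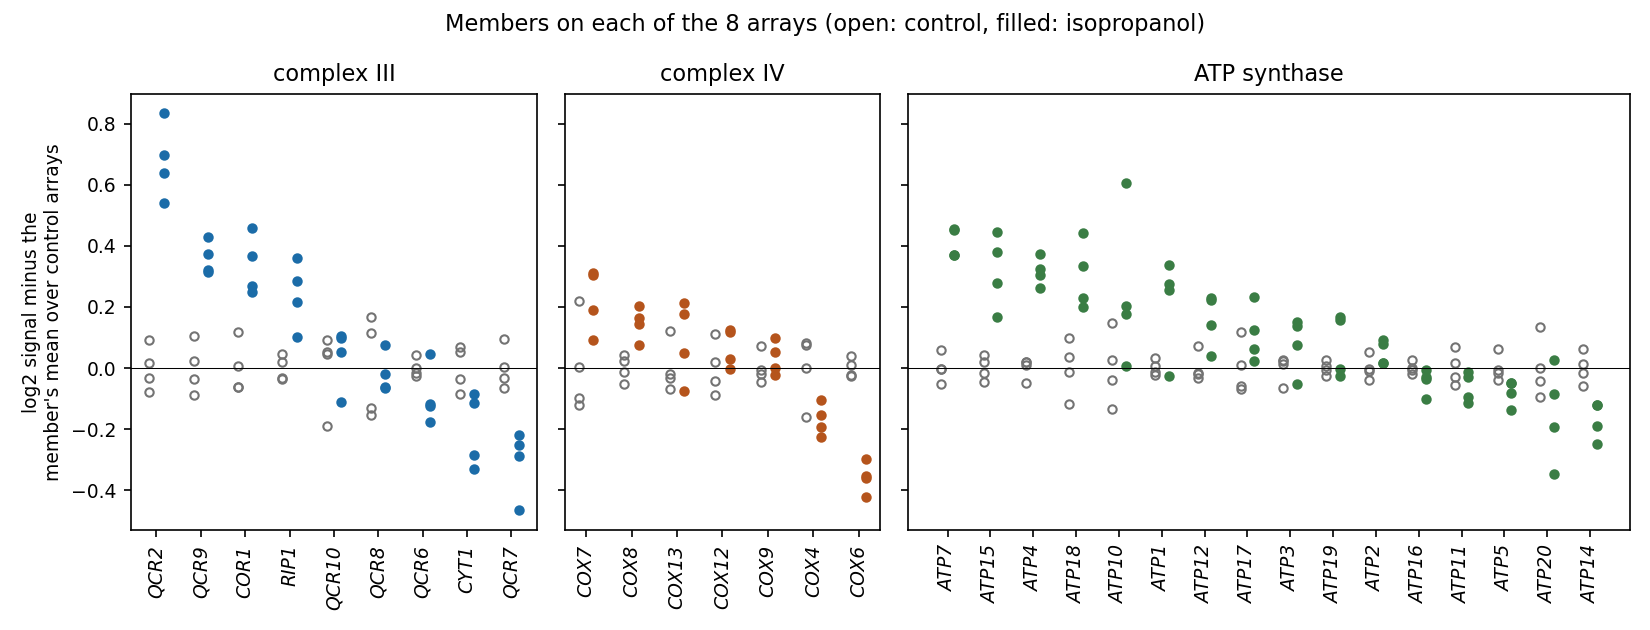
Log2 signal of the 32 genes on each array minus the gene's mean over the control arrays (vertical axis), with open circles for the 4 control arrays and filled circles for the 4 isopropanol arrays, ordered by change within each complex. QCR2, COR1, QCR9, COX6, ATP7 and ATP4 have groups that do not overlap, whereas those of QCR8 and COX9 overlap.

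Among the 16 ATP synthase genes 6 rose, 1 fell and 9 did not pass (43.8% called, against 77.8% of all genes). Their median of 0.09 (log2) turned to -0.07 after median centring. After median centring 3 were higher and 6 lower, where 34.5% of all genes were higher and 42.1% lower. After quantile normalization 8 were higher and 5 lower (35.2% and 38.4% of all genes), and with normexp 4 were higher and 2 lower (18.2% and 24% of all genes). The enzyme has a catalytic F1 head, a membrane Fo part with the proton channel, and stalks that join them. Of 5 F1 genes 2 rose and 0 fell, of 8 Fo and stalk genes 3 rose and 1 fell, and of 3 assembly factor genes 1 rose and 0 fell. Their medians were 0.08, 0.09 and 0.16. After median centring these were -0.08, -0.07 and -0.0015, and the median of the assembly factors was also negative after quantile normalization (-0.14) and with normexp (-0.02).

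In the peripheral stalk ATP7 (YKL016C), for subunit d, read 0.85, 0.80, 0.85 and 0.91 on the control arrays and 1.31, 1.31, 1.23 and 1.23 with isopropanol. The lowest isopropanol array stood clearly above the highest control array, and ATP7 rose 1.33-fold (log2 0.41, SE 0.04, adjusted p = 7.7e-06 in limma). ATP4 (YPL078C), for subunit b, read -0.15, -0.22, -0.16 and -0.15 on the control arrays and 0.20, 0.14, 0.09 and 0.16 with isopropanol. It rose 1.25-fold (log2 0.32, SE 0.04, adjusted p = 3.79e-05 in limma), again without overlap. ATP14 (YLR295C), for subunit h of the same stalk, went the other way and read -3.19, -3.15, -3.12 and -3.07 on the control arrays and -3.25, -3.25, -3.32 and -3.38 with isopropanol. It fell 1.13-fold (log2 -0.17, SE 0.05, adjusted p = 0.00591 in limma), and by more after median centring (-0.33), quantile normalization (-0.56) and normexp (-0.52). ATP5, for the stalk protein that confers oligomycin sensitivity, stood at -0.08 (95% interval -0.17 to 0.01). Its groups did not overlap, yet it did not pass (adjusted p = 0.0978 in limma), and it passed as lower after median centring (-0.24).

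The remaining Fo genes encode small membrane subunits. ATP18, for subunit i/j, rose 1.23-fold (log2 0.30, adjusted p = 0.00161 in limma) with groups that did not overlap, a call lost after median centring (0.14) and with normexp (0.16). ATP17, for subunit f, stood at 0.11 (95% interval -0.02 to 0.24), ATP19, for subunit k, at 0.07 (-0.04 to 0.19) and ATP20, for subunit g, at -0.15 (-0.33 to 0.03), and none of these 3 passed. ATP17 passed as higher without control replicate 4 (0.15, adjusted p = 0.0389 in limma) and after quantile normalization (0.27). ATP20 passed as lower without isopropanol replicate 2 (-0.21, adjusted p = 0.0285 in limma), after median centring (-0.31), after quantile normalization (-0.33) and with normexp (-0.32).

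In the F1 head ATP15 (YPL271W), for the epsilon subunit of the central stalk, read -0.90, -0.84, -0.93 and -0.86 on the control arrays and -0.44, -0.50, -0.71 and -0.60 with isopropanol. All isopropanol arrays were higher, and ATP15 rose 1.25-fold (log2 0.32, SE 0.06, adjusted p = 0.000678 in limma). ATP1, for the alpha subunit, rose 1.16-fold (log2 0.21, adjusted p = 0.0213 in limma) with 3 isopropanol arrays at 2.38 to 2.46 and replicate 1 at 2.09, below all control arrays (2.10 to 2.15). Its call was lost without isopropanol replicate 2 or 3 (adjusted p = 0.0602 and 0.0575 in limma) and after median centring (0.05). ATP2, for the catalytic beta subunit, stood at 0.05 (95% interval -0.04 to 0.14) and ATP3, for the gamma subunit, at 0.08 (-0.04 to 0.19), and neither passed. After quantile normalization both passed as higher (0.20 and 0.21), after median centring ATP2 passed as lower (-0.11), and ATP3 passed as higher without isopropanol replicate 4 (0.12, adjusted p = 0.0219 in limma). ATP16 (YDL004W), for the delta subunit, changed least of the ATP synthase genes, at -0.04 (-0.13 to 0.04). It read -0.57, -0.56, -0.55 and -0.53 on the control arrays and -0.58, -0.59, -0.65 and -0.56 with isopropanol, so the groups overlapped. ATP16 passed as lower after median centring (-0.20) and quantile normalization (-0.13).

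The 3 assembly factor genes were less clear. ATP12, for a chaperone of the alpha subunit, rose 1.12-fold (log2 0.16, adjusted p = 0.0167 in limma), and its change was -0.0015 after median centring, -0.00069 after quantile normalization and -0.02 with normexp. ATP11, for a chaperone of the beta subunit, stood at -0.06 (95% interval -0.16 to 0.03) and ATP10, for a factor that joins the mitochondrially encoded subunit 6 to the enzyme, at 0.25 (-0.0056 to 0.51). ATP11 passed as lower after median centring (-0.22) and quantile normalization (-0.14). ATP10 had the dimmest probe of the members, with 1 isopropanol array at -4.99 and the others at -5.59 to -5.39. It passed as higher without isopropanol replicate 1 (0.33, adjusted p = 0.0218 in limma) and as lower after quantile normalization (-0.34), and with normexp it stood at -0.75 and did not pass.

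Over the 3 scalings by median, quantiles and normexp, 10 of the 17 called members kept both call and direction. The share of all called genes that did so is not given here, so this count has no background to set it against. The 5 that kept a rise were COR1, QCR2, ATP4, ATP7 and ATP15, and the 5 that kept a fall were CYT1, QCR7, COX4, COX6 and ATP14. The median change of all genes was 0.11 on the reported scale, -0.05 after median centring, -0.02 after quantile normalization and -0.08 with normexp. The members' median minus that median was -0.04 on the reported scale and after median centring, 0.04 after quantile normalization and 0.12 with normexp. Groups did not overlap for 14 of the 32 genes (73.3% of all genes), 9 of them higher and 5 lower (45.9% and 27.4% of all genes).

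**Figure D3:**
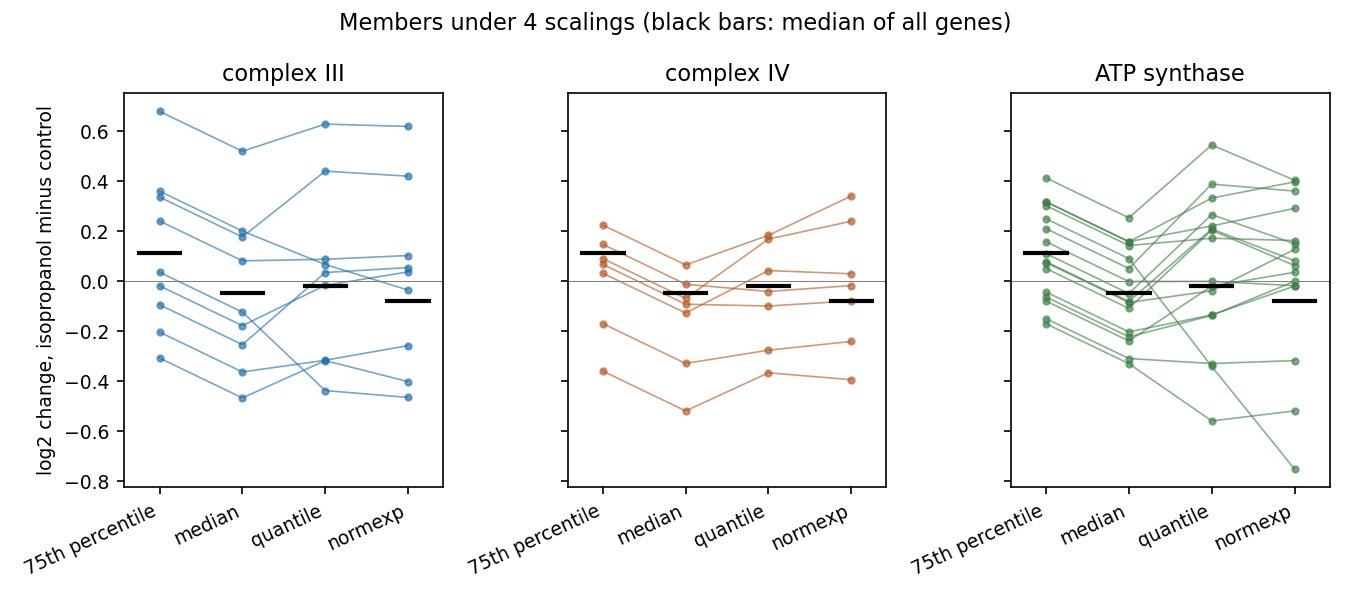
Log2 change of each member (lines, isopropanol minus control) under 4 scalings, by complex, with the median of all genes as black bars. QCR2 stays highest in complex III, at 0.52 to 0.68, while ATP14 goes from -0.17 on the reported scale to -0.56 after quantile normalization.

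The change of all genes went with signal, and members are mostly bright. With all genes in 10 bins by mean signal, 23 of the 32 members lay in the 5 brighter bins. In the brightest bin the median change of all 582 genes was -0.28 on the reported scale, and 62.5% were lower. The 5 members there (QCR6, ATP1, ATP2, ATP3 and ATP17) had a median of 0.08, with 0 lower on that scale. After median centring QCR6 (-0.25) and ATP2 (-0.11) passed as lower. There ATP3 (-0.08), ATP17 (-0.05) and ATP1 (0.05) did not pass. After quantile normalization ATP1, ATP2, ATP3 and ATP17 passed as higher. Shares of that bin's genes under these scalings are not given here. In the bin below the brightest, where all genes had a median of -0.15, COR1 and ATP7 rose. The 7 members of the next bin had a median of -0.02, beside -0.04 for all genes of that bin. In the dimmer bins, numbered from 1 as the dimmest and with 1 to 5 members each, the member medians went both ways. They lay below those of all genes in bins 1 (0.25 beside 0.55), 2 (-0.07 beside 0.43), 4 (-0.0014 beside 0.19) and 6 (-0.05 beside 0.12). They lay above in bins 3 (0.36 beside 0.25), 5 (0.16 beside 0.12) and 7 (0.22 beside 0.09). The part of signal in these values was not tested.

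**Figure D4:**
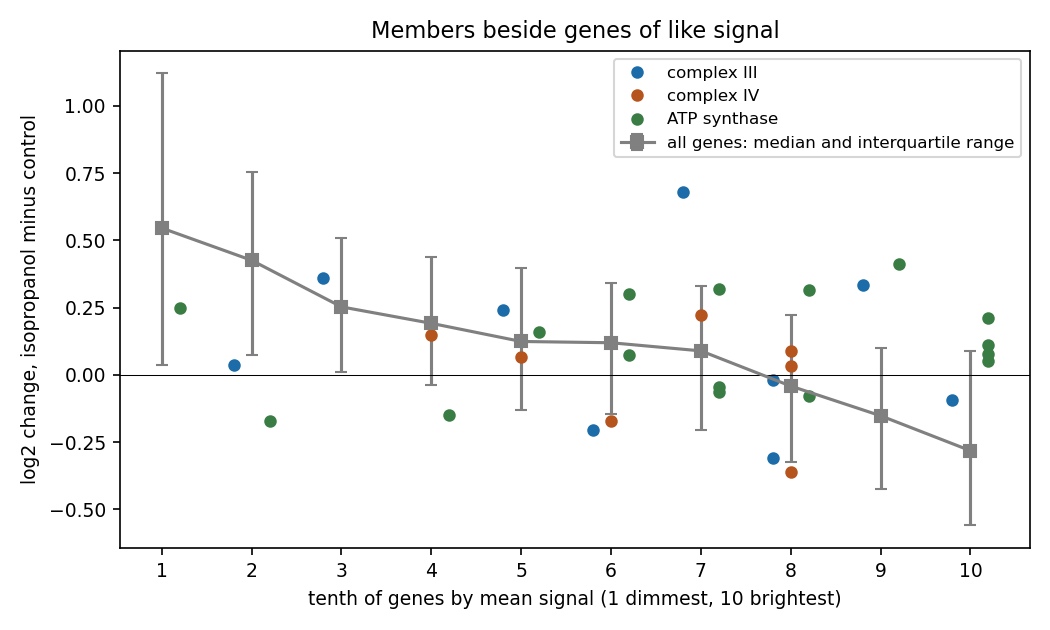
Log2 change of the members (coloured points, isopropanol minus control) by bin of mean signal, 10 bins from dim to bright, beside the median and interquartile range of all genes in each bin (grey). The grey medians go down from 0.55 in the dimmest to -0.28 in the brightest bin. The 5 members in the brightest bin lie above its median, whereas the 2 members in bin 2 lie below its median of 0.43.

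Some genes that act beside these subunits changed by more than any member. HAP4 (YKL109W), for the regulatory subunit of the Hap activator, read 0.37, 0.49, 0.49 and 0.52 on the control arrays and -1.60, -1.52, -1.47 and -2.02 with isopropanol. It fell 4.35-fold (log2 -2.12, SE 0.11, adjusted p = 4.55e-08 in limma), and its change on the spike-in scale was -0.96 and still called. CYC1 (YJR048W), which encodes the main form of cytochrome c, the carrier between complexes III and IV, read -0.87, -0.81, -0.76 and -0.77 on the control arrays and -2.19, -2.22, -2.35 and -2.37 with isopropanol. It fell 2.79-fold (log2 -1.48, SE 0.05, adjusted p = 3.45e-09 in limma), a call lost on the spike-in scale (-0.32) and kept there without isopropanol replicate 1 (-0.76). None of the 32 members changed as much as either gene on the reported scale, where the largest member changes were 0.68 and -0.36.

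The list with HAP4 holds 7 genes, the Hap activators and repressors linked to oxygen. In this list 3 rose and 3 fell (42.9% each), against 48.1% and 29.7% of all genes. The list's median was 0.02, but -0.14 after median centring, -0.21 after quantile normalization and -0.17 with normexp. HAP1, for the heme activator, rose 1.60-fold (adjusted p = 2.03e-07 in limma), although the S288C line is known for a Ty1 insertion in this gene and the probe's place relative to it is not given in the sources used here. HAP5, for a DNA-binding subunit of the Hap complex, rose 1.51-fold (adjusted p = 1.79e-05), a call lost with normexp (0.27). ROX1, for the repressor of hypoxic genes, fell 1.31-fold (adjusted p = 0.000211), whereas on the spike-in scale it stood at 0.77 and did not pass. Of the genes for the other DNA-binding subunits, HAP2 stood at 0.02 and did not pass, and HAP3 rose by 0.11 (log2, adjusted p = 0.0379 in limma). The call of HAP3 was lost without any 1 of control replicates 1, 2 and 4 or isopropanol replicates 1, 2 and 3 (adjusted p between 0.0611 and 0.108 in limma) and turned to -0.05 after median centring, without a call.

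Of 12 other electron transport and ATP synthase subunit genes tested, 6 rose (50%) and 5 fell (41.7%), against 48.1% and 29.7% of all genes. Of the 11 that every array read well above background, 5 rose and 5 fell. The median over the 12 was 0.12, but -0.04 after median centring, -0.06 after quantile normalization and -0.15 with normexp. The 4 genes of complex II, succinate dehydrogenase, rose by 1.11-fold (SDH1), 1.25-fold (SDH2), 1.15-fold (SDH3) and 1.19-fold (SDH4). They were picked out after their values were seen. After median centring only SDH2 of these 4 still passed, and SDH1 stood at -0.0029. SDH1 also lost its call after quantile normalization (0.07, adjusted p = 0.149 in limma), and SDH4 with normexp (0.15, adjusted p = 0.0769 in limma). SDH3 also lost its call when control replicate 1 or 3, or isopropanol replicate 1, 2 or 3, was left out (adjusted p between 0.0586 and 0.0736 in limma). The genes for NADH dehydrogenases, which take the place of complex I in yeast, moved further. NDE1, for the main external enzyme, fell 3.43-fold (log2 -1.78, SE 0.06, adjusted p = 4.56e-09 in limma), a call lost on the spike-in scale (-0.62) and kept there without isopropanol replicate 1 (-1.03). NDI1, for the internal enzyme, rose 1.71-fold (log2 0.77, adjusted p = 4.86e-05 in limma), a call lost with normexp (0.44). NDE2, for the second external enzyme, was well above background on 4 isopropanol arrays but only 2 control arrays, so it was tested through the group where it is high and its call is given no weight here. It read -6.82, -7.46, -7.16 and -6.82 on the control arrays and -6.10, -6.09, -6.16 and -6.15 with isopropanol, and its change was -0.85 with normexp.

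COX5A and COX5B, alternative forms of a complex IV subunit for aerobic and hypoxic growth, fell 1.13-fold and 1.14-fold (adjusted p = 0.038 and 0.0323 in limma), and their calls were lost in 6 and 5 of the 8 fits that left out 1 array. CYC7, the hypoxic cytochrome c, fell 1.62-fold (adjusted p = 7.9e-06 in limma). TIM11, for subunit e of the ATP synthase, stood at 0.08 (95% interval -0.12 to 0.28) and did not pass, but it passed as higher without isopropanol replicate 4 (0.18, adjusted p = 0.0102 in limma).

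Of 31 assembly factor genes of complexes III and IV tested, 16 rose (51.6%, near the 48.1% of all genes) and 4 fell (12.9%, against 29.7%), with a median of 0.22. Median centring gave 12 higher and 7 lower (median 0.06), after quantile normalization 10 and 9 (median -0.07), and with normexp 7 and 3 (median -0.05). Of all genes, 34.5% were higher and 42.1% lower after median centring, 35.2% and 38.4% after quantile normalization, and 18.2% and 24% with normexp. COX15, for an enzyme of heme A synthesis, rose 1.97-fold (log2 0.98, SE 0.04, adjusted p = 1.29e-08 in limma), and COX17, for a copper chaperone of complex IV, 1.54-fold (adjusted p = 9.37e-06). CBP4, for a complex III assembly factor, fell by 0.58 (log2, adjusted p = 6.19e-07 in limma) and CBP6, for a factor that acts on cytochrome b, 1.28-fold (adjusted p = 0.00258), and that of CBP6 was lost with normexp (-0.83, adjusted p = 0.0529 in limma). On the spike-in scale both stood above 0, at 0.58 and 0.80. Of 6 genes for factors of the ATP synthase, 4 rose (66.7%, against 48.1% of all genes) and 0 fell, with a median of 0.34. Median centring gave 4 higher and 2 lower (median 0.18), after quantile normalization 3 and 2 (median 0.19), and with normexp 1 and 1 (median 0.17). STF1, of the family of the enzyme's inhibitor, rose 2.12-fold (adjusted p = 1.98e-06 in limma), and ATP22, for a factor of mitochondrial subunit 6 translation, 1.68-fold (adjusted p = 2.68e-07). With normexp neither passed (0.34 and 0.40).

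All 7 genes for the mitochondrially encoded subunits of the same complexes fell, where 29.7% of all genes did. Their median log2 change of -1.23 stood at -0.07 with 0 lower on the spike-in scale, or at -0.42 with 4 lower there without isopropanol replicate 1. COB, for cytochrome b of complex III, read 1.13, 1.11, 1.26 and 1.35 on the control arrays and -1.15, -0.18, -0.51 and -1.09 with isopropanol, a fall of 3.85-fold (adjusted p = 5.92e-06 in limma). COX1, for the catalytic core of complex IV, fell 3.53-fold (adjusted p = 1.6e-07 in limma), and OLI1, for the Fo ring subunit, fell by 0.59 (log2, adjusted p = 9.46e-05 in limma). No test compared these genes with the nuclear ones. Of the 32 nuclear members 5 fell, COX6 by 1.28-fold and the others by less.

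**Figure D5:**
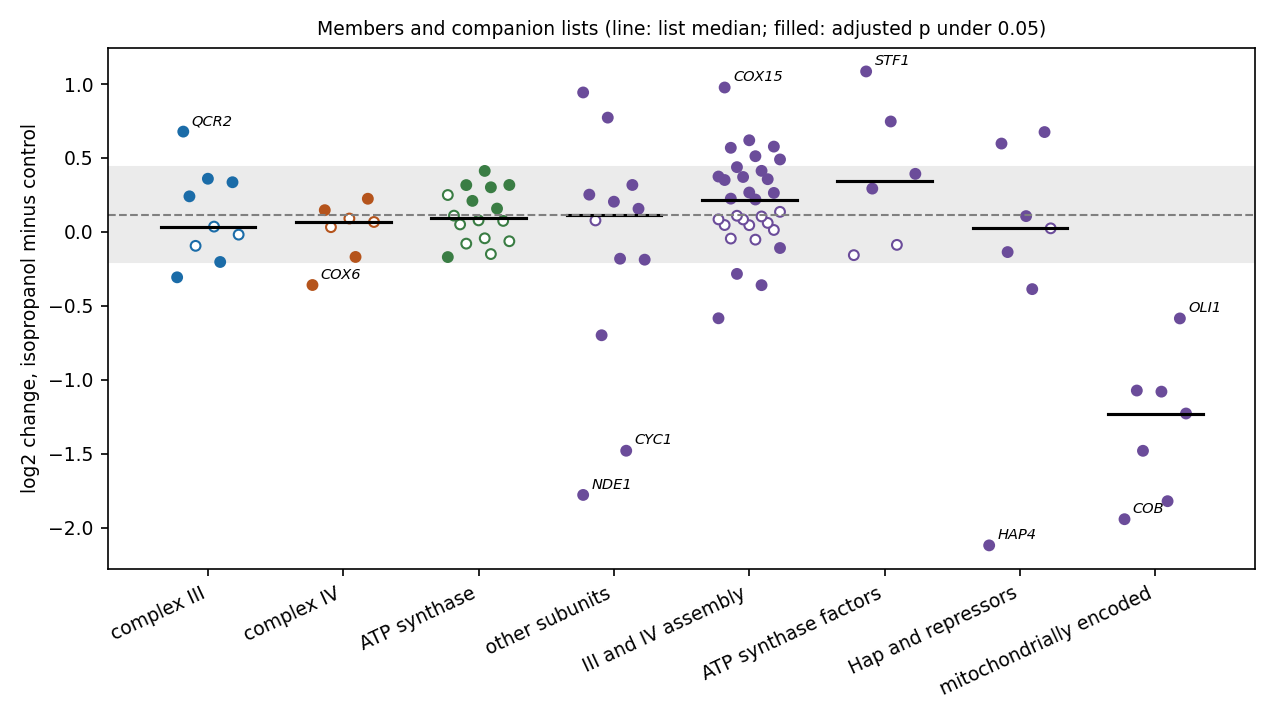
Log2 change (isopropanol minus control, vertical axis) of the members by complex and of 5 companion lists, with list medians as lines, filled points where the adjusted p was under 0.05, and the interquartile range and median of all genes as a band and a dashed line. The members lie between -0.36 and 0.68, while HAP4, NDE1, CYC1 and the 7 mitochondrially encoded genes (median -1.23, OLI1 at -0.59) lie below them. CYC7 (-0.70), CBP4 (-0.58) and ROX1 (-0.39) also lie below, and CBP6 (-0.3603) just under the lowest member.

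The 32 genes are spread over 13 chromosomes of the R64 assembly, with at most 5 on 1 chromosome and 0 pairs of neighbouring protein-coding genes among them. The peripheral stalk held both ATP7 (0.41) and ATP14 (-0.17), and the small subunits of complex III held both QCR9 (0.36) and QCR7 (-0.31). The SD of the changes over members was 0.31 in complex III, 0.20 in complex IV and 0.18 in the ATP synthase.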

How the data were processed

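Per the labels' protocols, cRNA made from total RNA carried the dye Cyanine 3, and each sample had its own 1-colour Agilent array. Per the file headers, the deposited files hold intensity values from Agilent Feature Extraction 9.5.3.1, with the processed signal already background-subtracted and detrended but not scaled between arrays; flags are other columns deposited by the authors. The series matrix deposited by the authors holds log2 values, close to log2 processed signal minus each array's 75th percentile (medians between -1.52 and -1.32, rank correlation of at least 0.997 over 6256 probes). How it was made beyond that is not given in the sources used here. The main scale subtracts the same percentile. Outlier spots (0 to 21 per array) and control spots were left out, the 2 spots of a probe were averaged, and probes entered the tests if all arrays of either group read them well above background. The brightest probe stood for a gene. Symbols came from the RefSeq R64 gene table, and since the files use an older build (sacCer1) no coordinates are given.

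Groups were compared with limma 3.58.1 in R 4.3.3 (lmFit, eBayes, Benjamini-Hochberg over 5816 genes), which was tested on simulated data. Alternatives were median centring, quantile normalization, spike-in scaling, normexp (offset 50, on median spot and background signal, since the files hold no mean spot signal), the deposited matrix, 2 other filters, the mean of a gene's probes, the replicate number or scan as a block, and leaving out arrays. Having 4 arrays per group limits the precision. Array values in full are given for the 3 largest called changes, the smallest change and called changes against the majority in each complex; by rule, up to 2 called genes in each direction, HAP4 and CYC1 come from the companion lists. SDH1 to SDH4, CYC7, COX5A, COX5B, TIM11, HAP2, HAP3 and OLI1 were named beyond that rule, after their values were seen. The members and lists were chosen with earlier results of these data known. COX26 and COA2 were on no probe. No sequence of a probe or promoter was used here, so the planned count of promoter motifs was not made.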

Additional observations from a re-analysis of the deposited data

Results flagged for a closer look

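Of 64 sets of 4 arrays (32 genes in each group), 2 held an array far from the others, where chance gives about 5% of sets. ATP3 on control replicate 1 read 1.46, against 1.54 to 1.56 on the other control arrays. Without that array its change was 0.06 and still did not pass. ATP4 on control replicate 2 read -0.22, against -0.16 to -0.15 on the other control arrays, and without it the rise was 0.30 and still called.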

How the results depend on the processing

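The arrays number 4 a group, slide goes with group, and the dimmest member, ATP10, is the least precise (SE 0.11). The deposited matrix, the mean of a gene's probes and no filter on dim probes changed 0 of the 32 calls. On the spike-in scale 8 complex III, 6 complex IV and 16 ATP synthase genes were higher (9, 7 and 16 without isopropanol replicate 1) and 0 lower in each, the complex medians being 1.196, 1.227 and 1.254 (0.768, 0.803 and 0.818). Over all genes 4525 were then higher and 19 lower (4868 and 77). Changes that turned positive there (without isopropanol replicate 1 in brackets) were CYT1 0.96 (0.59), QCR6 1.07 (0.67), QCR7 0.85 (0.42), QCR8 1.14 (0.73), COX4 0.99 (0.56), COX6 0.80 (0.39), ATP16 1.12 (0.70), ATP5 1.08 (0.66), ATP14 0.99 (0.57), ATP20 1.01 (0.58) and ATP11 1.10 (0.68), and among companions CYC7 0.46 (0.025), COX5A 0.98 (0.58), COX5B 0.97 (0.56), CBP4 0.58 (0.18), CBP6 0.80 (0.41), ROX1 0.77 (0.37) and OLI1 0.57 (0.19). After median centring 0 complex IV genes were higher, 3 ATP synthase genes were higher and 6 lower, the complex medians were -0.12, -0.092 and -0.065, and COX8 (-0.012), COX9 (-0.13), ATP2 (-0.11), ATP12 (-0.0015), SDH1 (-0.0029), HAP2 (-0.14) and HAP3 (-0.052), each called on one of the scales, turned negative. In all 10 members changed sign, 6 of them called on neither scale (QCR10, COX12, COX13, ATP3, ATP17 and ATP19). After quantile normalization 2 complex III and 0 complex IV genes were higher, 5 ATP synthase genes were lower, the complex IV median was -0.041, and QCR10 (-0.44), COX8 (-0.041), ATP10 (-0.34), ATP12 (-0.00069), HAP2 (-0.26) and HAP3 (-0.063) turned negative likewise. Of 7 members that changed sign, 3 were called on neither scale (QCR6, COX12 and ATP19). With normexp 2 complex III genes were higher, 2 ATP synthase genes lower and 1061 of all genes higher, the complex IV median was -0.017, and QCR9 (-0.035), COX8 (-0.017), ATP12 (-0.018) and NDE2 (-0.85) turned negative likewise. Of 9 members that changed sign, 6 were called on neither scale (QCR6, QCR8, QCR10, COX12, ATP5 and ATP10, the last at -0.75). Scan as a random block was, like the spike-in scale without 1 array, chosen after the data were seen. It gave 15 higher and 8 lower members, among them 9 and 3 of the ATP synthase, with 3050 genes higher and 1917 lower in all. The fitted correlation within scans was -0.21. Since the isopropanol arrays shared a scan without any control array, this fit cannot tell scan from treatment. Without control replicate 3 and isopropanol replicate 1 together, 1 complex IV gene was higher and 1 lower. Leaving out 1 array gave 4 higher and 2 to 3 lower genes in complex III, 1 to 3 and 1 to 2 in complex IV, 5 to 7 and 1 to 2 in the ATP synthase, and 2702 to 2794 higher and 1655 to 1752 lower over all genes. The medians ran from -0.027 to 0.085, 0.038 to 0.105 and 0.066 to 0.129, and 14 of 17 calls were kept throughout. For all called genes the share kept throughout is not given here. Arrays with the same replicate number did not deviate together (correlations -0.16 to 0.04), and the replicate block gave 7 higher ATP synthase genes, with 2721 genes higher and 1676 lower in all. The cause of these shifts was not tested.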

Other observations

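Within groups the members shared small array offsets, and whether all genes share them was not tested. Control replicate 4 held the highest reading for 18 of the 32 genes and the lowest for 2, and on average the members lay 0.04 (log2) above their control means there. Isopropanol replicate 4 held the lowest isopropanol reading for 16 of the 32 genes and the highest for 5, with an average of -0.04. The median SD between arrays was 0.05 over the members in the control group and 0.09 in the isopropanol group, against 0.06 and 0.08 over all genes.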
